A study of Homo sapiens with 4 samples.

Results

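Cyclic AMP is made from ATP by adenylyl cyclases and is broken down by phosphodiesterases. 10 genes of this second messenger system were followed in U87 cells, an established human glioblastoma line, out of 58219 genes in the count table. They are the cyclases ADCY3, ADCY6, ADCY7 and ADCY9, the phosphodiesterases PDE4A, PDE4B and PDE4D, the regulatory subunit PRKAR1A of protein kinase A, the transcription factor gene CREM, and UCN2, which encodes the peptide urocortin 2. The members were found by symbol, with 1 row each. ADCY7 and UCN2 were chosen by their fall with carnosine in this same comparison, so their values are given as a description with no test. The other 8 were taken as genes of the pathway, with earlier results of these data known. All 10 passed the filter on low counts, as did 16340 genes in all.

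The carnosine group was 2 libraries of U87 cells kept for 24 h in fresh medium with 50 mM carnosine, the dipeptide beta-alanyl-L-histidine, and the control group was 2 libraries of U87 cells given the same medium change without it. Total RNA depleted of ribosomal RNA was sequenced, and gene counts summed to between 51632970 and 57728762 in the carnosine libraries and between 59155538 and 71766267 in the controls. The labels do not say that replicates came from separate cultures, so a p value here speaks only of the spread among these 4 libraries, part or all of which may be technical. The ATCC stock of this line is known to differ in genotype from the tumour it was named after. Of 10 glioblastoma or astrocytic markers 7 were tested, and the list summed to 8711 and 9247 CPM (counts scaled to a common library size) with carnosine and 10466 and 10070 CPM in controls. S100B and AQP4 had no count, SOX2 had 2 counts in 1 library and GFAP stayed under 0.3 CPM. OLIG2 was lower in both carnosine libraries without passing the test, and NES overlapped between groups. Within the list VIM was at 5583 and 5629 CPM with carnosine and 7420 and 7045 CPM in controls, TNC overlapped between groups, CD44 was higher in both carnosine libraries without passing the test, and CHI3L1 passed it, with 175.4 and 168.9 CPM with carnosine and 115.8 and 118.7 CPM in controls. The 3 neuron markers summed to 22.75 and 19.5 CPM with carnosine and 27.6 and 25.3 CPM in controls, all of it from SYT1 and SNAP25, since RBFOX3 had no count. The 3 oligodendrocyte markers stayed under 0.3 CPM in sum, with MOG at no count. The 4 leukocyte or microglia markers summed to 10.1 and 8.96 CPM with carnosine and 25.3 and 23.8 CPM in controls. Nearly all of that was CSF1R, which passed the test as lower with carnosine. AIF1 had no count, PTPRC at most 8 counts and CD68 under 1 CPM. The 3 endothelium markers summed to 6.77 and 5.54 CPM with carnosine and 2.28 and 2.90 CPM in controls. Most of that was PECAM1, which passed the test as higher with carnosine. CDH5 had no count and VWF stayed under 1 CPM. The part of these genes in the results below was not tested.

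Most cyclases are membrane proteins that respond to the stimulatory and inhibitory G proteins of cell surface receptors. Cyclic AMP binds the regulatory subunits of protein kinase A and frees its catalytic subunits, which phosphorylate CREB family factors at promoters with the cyclic AMP response element. PDE4 enzymes degrade cyclic AMP and are themselves regulated by it, and an internal promoter of CREM yields the repressor ICER, which closes a feedback loop. Urocortin 2 is a ligand of the corticotropin-releasing hormone receptor CRHR2, which signals through the stimulatory G protein. Raised cyclic AMP has been linked to slower growth of glioma cells in culture.

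The promoter windows of a few of the genes below are shown first, because cyclic AMP acts on transcription through short promoter motifs. They are RefSeq windows on GRCh38.p14 from 250 bases before to 50 bases after a transcript start, written 5′ to 3′ along the gene's strand. Capitals mark the cyclic AMP response element TGACGTCA, its core TGACG, and the AP-1 heptamer TGACTCA, each searched on both strands. The heptamer was added to the search after the UCN2 and ADCY7 windows had been read. The set holds UCN2 (chr3:48563732-48564031, minus strand) and ADCY7 (chr16:50266301-50266600, plus strand), the members with the largest falls, the receptor GPR3 (chr1:27392372-27392671, plus strand) and the phosphodiesterase PDE7B (chr6:135851451-135851750, plus strand), which passed the test in opposite directions, and an internal start of CREM (chr10:35195652-35195951, plus strand).
UCN2: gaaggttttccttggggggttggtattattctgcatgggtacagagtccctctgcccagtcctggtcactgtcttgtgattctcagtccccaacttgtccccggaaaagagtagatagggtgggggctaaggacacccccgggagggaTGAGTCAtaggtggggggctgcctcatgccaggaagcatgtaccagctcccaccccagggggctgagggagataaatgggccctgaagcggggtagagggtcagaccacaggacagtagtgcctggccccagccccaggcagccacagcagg
ADCY7: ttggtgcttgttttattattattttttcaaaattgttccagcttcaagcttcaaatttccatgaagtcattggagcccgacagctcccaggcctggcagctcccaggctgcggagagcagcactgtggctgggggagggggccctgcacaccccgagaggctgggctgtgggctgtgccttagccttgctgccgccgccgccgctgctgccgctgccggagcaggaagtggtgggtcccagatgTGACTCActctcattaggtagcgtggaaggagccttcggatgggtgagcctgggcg
GPR3: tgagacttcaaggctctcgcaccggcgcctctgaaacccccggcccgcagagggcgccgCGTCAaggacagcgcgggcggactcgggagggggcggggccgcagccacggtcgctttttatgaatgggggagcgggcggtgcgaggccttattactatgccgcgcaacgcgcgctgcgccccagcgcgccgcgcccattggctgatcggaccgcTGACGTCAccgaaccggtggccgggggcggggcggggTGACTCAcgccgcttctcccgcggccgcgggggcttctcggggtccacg
PDE7B: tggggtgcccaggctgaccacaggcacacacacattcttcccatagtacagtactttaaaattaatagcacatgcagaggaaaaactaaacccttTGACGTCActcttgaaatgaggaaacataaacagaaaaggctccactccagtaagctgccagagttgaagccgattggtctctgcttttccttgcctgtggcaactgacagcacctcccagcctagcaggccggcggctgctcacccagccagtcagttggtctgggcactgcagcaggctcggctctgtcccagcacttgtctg
CREM: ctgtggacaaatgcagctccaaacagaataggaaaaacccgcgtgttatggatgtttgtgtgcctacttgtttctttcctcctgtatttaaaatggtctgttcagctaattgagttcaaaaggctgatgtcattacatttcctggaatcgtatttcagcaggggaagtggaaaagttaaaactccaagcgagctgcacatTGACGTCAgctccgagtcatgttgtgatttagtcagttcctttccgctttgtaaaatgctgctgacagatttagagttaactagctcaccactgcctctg

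The UCN2 and ADCY7 windows held neither TGACGTCA nor TGACG. Each held 1 AP-1 heptamer, which began at position -102 in UCN2 and at -6 in ADCY7, where 0 is the first transcribed base. That heptamer was present in 4.95% of all 35116 promoter windows, TGACGTCA in 1.85% and TGACG in 24.6%. GPR3 held TGACGTCA at position -36, together with the AP-1 heptamer and a further TGACG. In PDE7B the full element began at -155, and in the internal CREM window at -50. GPR3 and PDE7B were not typical of the pathway genes that passed the test. The windows searched for PKIB, PKIG, POPDC3, ADORA2B, MC1R, AKAP12, AKAP7 and CREB5 did not hold TGACGTCA. Neither did those of the CREB target genes that passed, PPARGC1A, PER1, NR4A3, CITED2 and BDNF. The shorter TGACG was in windows of PKIB, ADORA2B and AKAP7, and not in those of PKIG, POPDC3, MC1R, AKAP12 and CREB5. Of the CREB targets, NR4A3 held 4 matches to TGACG, and windows of PPARGC1A and BDNF held it too. Those of PER1 and CITED2 did not. ADCY8 was left out of the search. RefSeq windows were found for 8 members, 35 windows in all, many of them overlapping. Of these, 5 held TGACGTCA, 2 each for CREM and PRKAR1A and 1 for PDE4A, and 10 held TGACG. The AP-1 heptamer was in 3, those of UCN2 and ADCY7 and 1 of the 8 windows of PDE4D, whose groups overlapped. Outside the members it was also in a window of PKIB, at -230 and -61, and in a window of CREB5, at -44. Both PKIB and CREB5 were called higher with carnosine, while GPR3 was called lower. The PDE4A window with the full element (chr19:10416523-10416822) held 7 matches to TGACG, 2 of them the overlapping arms of the full element. A match is a description of letters, not a bound site.

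Both genes that had been chosen for a fall had their carnosine libraries well below their controls. UCN2 (ENSG00000145040.3, chromosome 3, 48561727 to 48563773, GRCh38) had 100 and 50 counts in the carnosine libraries and 464 and 277 counts in the controls, which is 1.66 and 0.993 CPM with carnosine and 6.53 and 4.72 CPM in controls. Both carnosine libraries were below both controls, and each carnosine library over each control gave a ratio between 0.152 and 0.352. The mean was 1.33 ± 0.47 CPM with carnosine and 5.62 ± 1.28 CPM in controls (SD, n = 2 each). On the log2 scale the difference was -2.07 ± 0.31 (SE), or 4.21-fold lower. It was the 35th deepest fitted fall among 16340 genes tested.

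ADCY7, a cyclase stimulated by G protein beta-gamma subunits together with the stimulatory alpha subunit, had 136 and 67 counts in the carnosine libraries and 397 and 359 counts in the controls. Its level was 2.26 and 1.33 CPM with carnosine and 5.58 and 6.12 CPM in controls. The groups did not overlap, and the carnosine over control ratios lay between 0.217 and 0.405. The mean was 1.80 ± 0.66 CPM with carnosine and 5.85 ± 0.38 CPM in controls (SD, n = 2 each). On the log2 scale the difference was -1.70 ± 0.28 (SE), or 3.24-fold lower, the 74th deepest fall. The gene (ENSG00000121281.12) lies on chromosome 16 from 50246137 to 50318135 (GRCh38), and the RefSeq start shown above lies inside that span. In bulk RNA, fewer cells that express a gene and less RNA per cell cannot be told apart, which holds for every level given here.

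**Figure D1:**
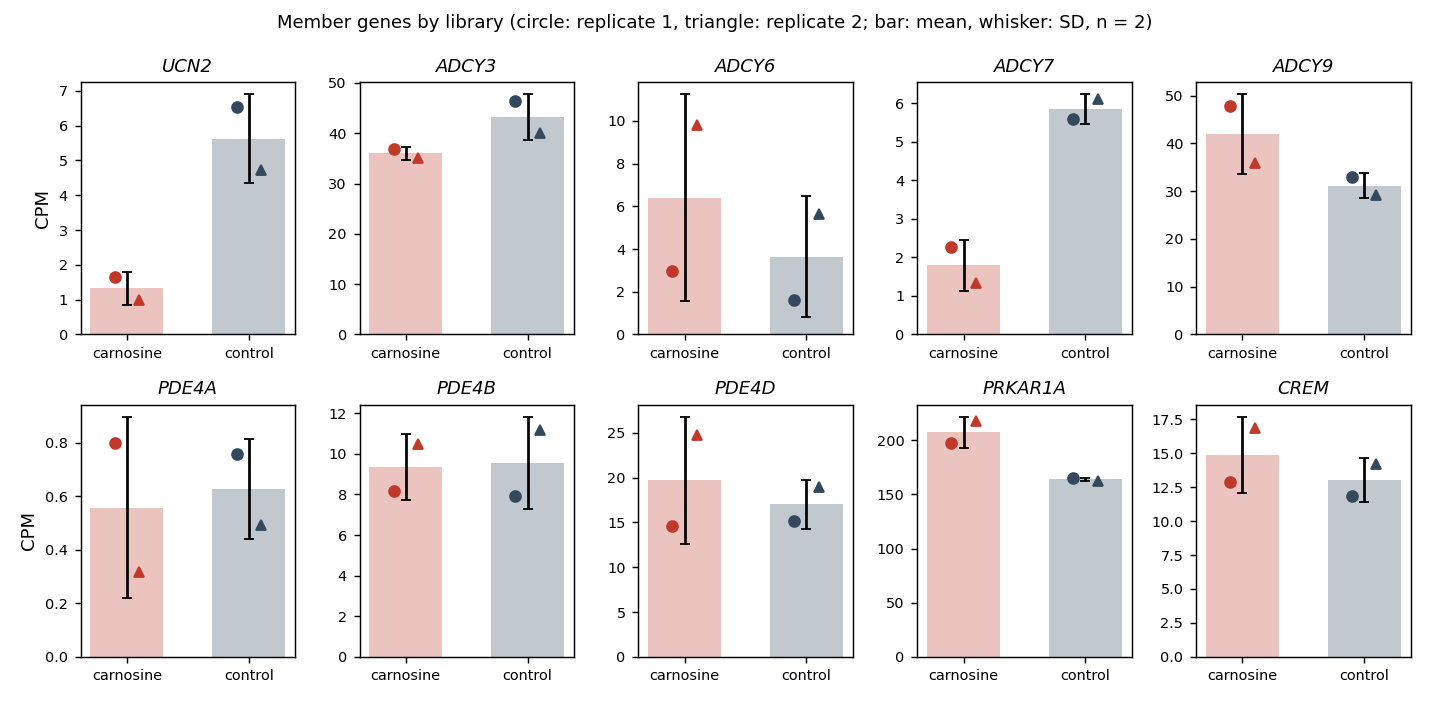
Expression of the 10 genes in CPM on linear axes that start at 0, with circles for replicate 1, triangles for replicate 2, bars for the mean and whiskers for the SD (n = 2 each). Carnosine libraries lie below both controls for UCN2, ADCY7 and ADCY3 and above both for ADCY9 and PRKAR1A, and the groups overlap for the other 5 genes.

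Neighbouring genes did not share the size of either fall. BRD7, a bromodomain protein gene on the opposite strand whose exons cover 3593 of the 8630 exonic bases of ADCY7 (41.6%), had 62.3 and 64.75 CPM with carnosine and 63.1 and 65.2 CPM in controls. TENT4B, a noncanonical poly(A) polymerase gene 10827 bases away on the other side, had 21.8 and 21.2 CPM with carnosine and 19.9 and 21.8 CPM in controls. Neither passed the test (adjusted p = 0.944 for BRD7 and 0.844 for TENT4B). The library kit keeps strand, but whether the counting used it is not stated in what was used here, so reads over the shared bases cannot be assigned with certainty, and BRD7 had more than 10 times the CPM of ADCY7 in each library.

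UCN2 lies between 2 genes of its own strand. PFKFB4, which encodes an enzyme that controls fructose 2,6-bisphosphate, shares 289 of the 1481 exonic bases of UCN2 (19.5%) and had 64.5 and 45.9 CPM with carnosine and 81.7 and 66.7 CPM in controls. COL7A1, the type VII collagen gene that ends 300 bases upstream, had 110.3 and 84.2 CPM with carnosine and 134.5 and 121.1 CPM in controls. Carnosine libraries were below controls for both genes, 1.34-fold lower on average for PFKFB4 (adjusted p = 0.178) and 1.31-fold lower for COL7A1 (adjusted p = 0.141), and neither passed edgeR's quasi-likelihood test.

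**Figure D2:**
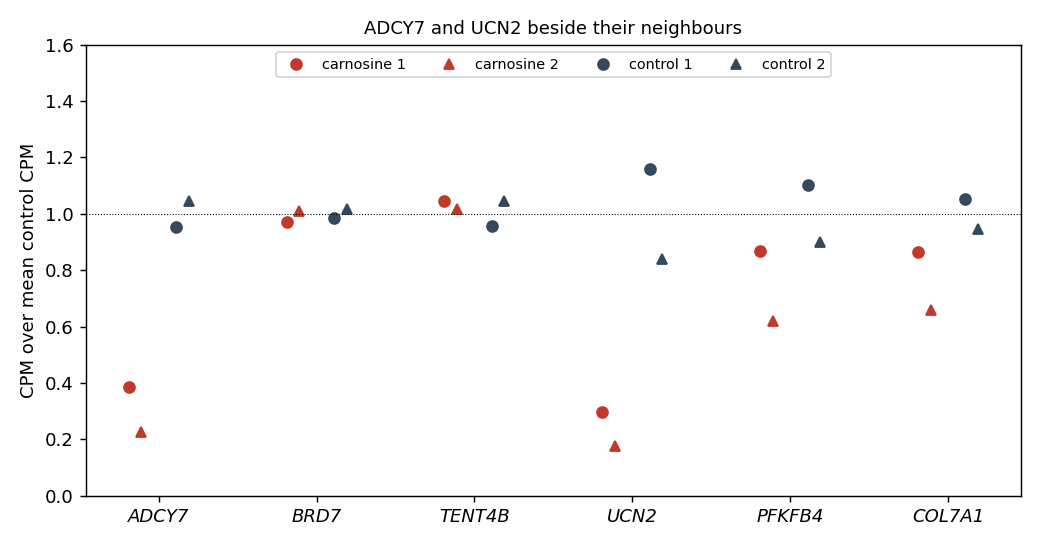
Each library's CPM divided by the mean control CPM of that gene, for ADCY7 and UCN2 and the protein-coding genes beside them, with carnosine in red and control in dark grey (circle, replicate 1; triangle, replicate 2). The carnosine points of ADCY7 and UCN2 lie below 0.5 of the control mean, and those of BRD7 and TENT4B lie near 1.

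For the 8 members that were not chosen for their change, edgeR's quasi-likelihood test, its p values adjusted by Benjamini-Hochberg across 16340 genes, called 0, where 8.31% of all genes were called, 3.95% higher and 4.36% lower. At an unadjusted p under 0.05 there were 3 of 8 (ADCY3, ADCY9 and PRKAR1A), where 4473 of all genes tested (27.4%) had one. DESeq2 called 1 of 8, PRKAR1A, against 15.3% of the 14439 genes to which it gave an adjusted p, and limma-voom called 0, against 8.09%. The groups did not overlap for the same 3 of 8, where 56.5% of all genes tested had groups apart. Their median log2 fold change was 0.20, against 0.001 over all genes tested. The cyclases that were not chosen went both ways.

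ADCY3 (chromosome 2, 24819169 to 24919839), a calcium-responsive cyclase known best from olfactory neurons, had 36.9 and 35.05 CPM with carnosine and 46.4 and 40.0 CPM in controls. Both carnosine libraries were lower than both controls, with a fitted log2 value of -0.27 ± 0.11 (SE) and an adjusted p of 0.179. CENPO, a centromere protein gene of the opposite strand, shares 1488 of its 6058 exonic bases (24.6%) and had 74.6 and 67.5 CPM with carnosine and 105.1 and 86.9 CPM in controls.

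ADCY9 (chromosome 16, 3953387 to 4116185), a widely expressed cyclase, had 47.8 and 36.0 CPM with carnosine and 33.1 and 29.3 CPM in controls. Both carnosine libraries were higher, with a log2 fold change of 0.43 ± 0.15 (SE) and an adjusted p of 0.129. Without a filter on low counts its adjusted p was 0.0133, and without carnosine replicate 2 it was 0.0232.

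ADCY6 (chromosome 12, 48766194 to 48789037), a cyclase that calcium inhibits, differed more between replicates than between groups. It had 2.99 and 9.83 CPM with carnosine and 1.63 and 5.64 CPM in controls, so that replicate 2 was 3.28 times replicate 1 with carnosine and 3.46 times in controls. Within each replicate number the carnosine library was higher, 1.83-fold for number 1 and 1.74-fold for number 2. The fitted log2 difference was 0.82 ± 0.67 (SE), with an adjusted p of 0.481. It was -0.28 without carnosine replicate 2 and 1.97 without control replicate 2, 1.44 without carnosine replicate 1 and 0.17 without control replicate 1, so each of the 4 libraries moved it by over 1.5 times. Without a filter on low counts its adjusted p was 0.00282.

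In each of the 3 PDE4 genes the groups overlapped, and 0 passed the test in edgeR, DESeq2 or limma-voom or had an unadjusted p under 0.05. PDE4D (chromosome 5, 58969038 to 60522120) had 14.6 and 24.7 CPM with carnosine and 15.1 and 18.9 CPM in controls, or 0.21 ± 0.25 (SE) on the log2 scale (adjusted p = 0.636). PDE4B (chromosome 1, 65792514 to 66374579) had 8.18 and 10.5 CPM with carnosine and 7.95 and 11.2 CPM in controls, or -0.03 ± 0.21 (adjusted p = 0.943). PDE4A (chromosome 19, 10416773 to 10469631) was near the limit of counting, with 48 and 16 counts with carnosine and 54 and 29 counts in controls, or -0.16 ± 0.53 (adjusted p = 0.884). All 3 fitted changes turned sign when 1 library was left out. PDE4 genes make long and short enzyme forms from several starts, and a count per gene sums over them.

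PRKAR1A (chromosome 17, 68511780 to 68551319), the RI-alpha subunit that holds protein kinase A inactive, had the most counts of the 10 genes. It had 197.3 and 217.6 CPM with carnosine and 165.1 and 162.9 CPM in controls. Both carnosine libraries were higher, with a mean of 207.5 ± 14.4 CPM against 164.0 ± 1.55 CPM in controls (SD, n = 2 each). The fitted log2 difference of 0.34 ± 0.10 (SE) did not pass (adjusted p = 0.0924), while DESeq2 called it (adjusted p = 0.0366). CREM (chromosome 10, 35126791 to 35212958) had 12.9 and 16.9 CPM with carnosine and 11.9 and 14.2 CPM in controls, so the groups overlapped, and its log2 fold change was 0.19 ± 0.17 (adjusted p = 0.524). It was -0.02 without carnosine replicate 2 and 0.37 without carnosine replicate 1, and 0.06 and 0.32 without control replicates 1 and 2. The count for CREM sums full-length forms and ICER.

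**Figure D3:**
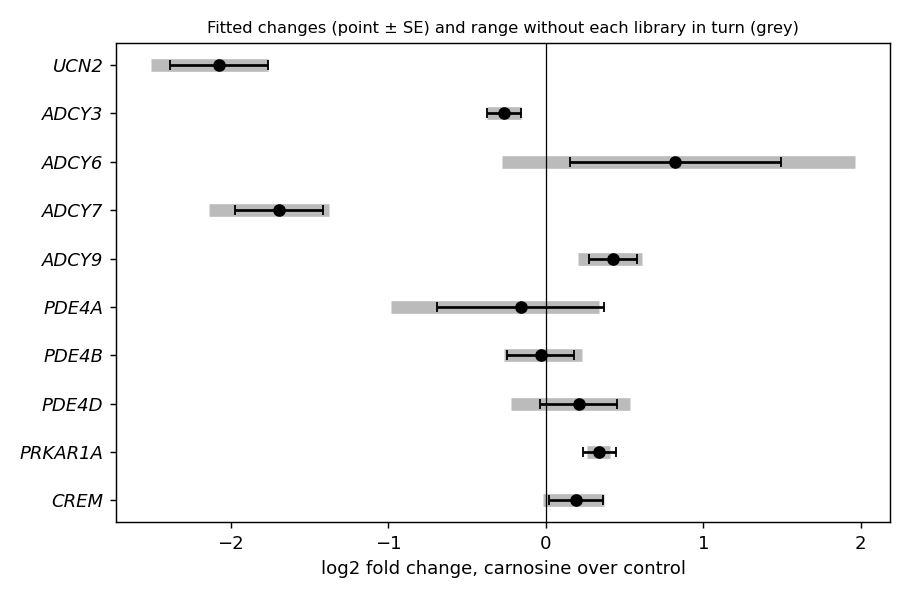
Fitted log2 fold change of carnosine over control for each of the 10 genes as a point with its SE, and in grey the range of the fitted value when each of the 4 libraries was left out in turn. UCN2 stayed between -2.50 and -1.76 and ADCY7 between -2.14 and -1.38, while the range of ADCY6 ran from -0.28 to 1.97.

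Per kilobase of exonic bases, PRKAR1A stood highest in both groups, at 30.4 CPM per kb with carnosine and 24.1 CPM per kb in controls, and ADCY3 followed with 5.94 CPM per kb with carnosine and 7.13 CPM per kb in controls. ADCY9 came next with 4.04 CPM per kb with carnosine, against 3.01 CPM per kb in controls, and CREM had 2.61 CPM per kb with carnosine and 2.29 CPM per kb in controls. UCN2 had 0.897 CPM per kb with carnosine and 3.80 CPM per kb in controls. In controls UCN2 and ADCY9 therefore stood next to each other, and their libraries overlapped. With carnosine UCN2 had a level among those of PDE4D (1.21 CPM per kb), PDE4B (1.08 CPM per kb) and ADCY6 (0.762 CPM per kb), whose libraries overlapped with it. ADCY7 had 0.208 CPM per kb with carnosine and 0.678 CPM per kb in controls, where it overlapped with ADCY6. PDE4A was lowest in both groups, at 0.0840 CPM per kb with carnosine and 0.0943 CPM per kb in controls. Lengths are unions over all annotated transcripts, so a gene with many forms, such as PDE4D with 16308 exonic bases, has a lower value than its main form would.

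ADCY7 was a small part of the cyclase mRNA of these cells. Over the 10 cyclase genes the CPM per kb summed to 35.8 and 31.3 with carnosine and 27.75 and 27.2 in controls. ADCY7 made up 0.733% and 0.492% of that sum with carnosine and 2.33% and 2.61% in controls. ADCY8, a cyclase stimulated by calcium and calmodulin, made up 68.1% and 66.1% with carnosine and 57.6% and 59.9% in controls, and ADCY3 made up 17.0% and 18.5% with carnosine and 27.6% and 24.3% in controls. ADCY9 held 12.9% and 11.1% with carnosine and 11.5% and 10.4% in controls. ADCY10, the soluble cyclase that bicarbonate stimulates, held 0.189% and 0.145% with carnosine and 0.264% and 0.276% in controls. Shares depend on one another, so a higher share of ADCY8 lowers the others. ADCY1, ADCY2 and ADCY4 had no count in any library, which allows up to 0.0422 to 0.0596 CPM at 3 counts per library, counting error only.

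**Figure D4:**
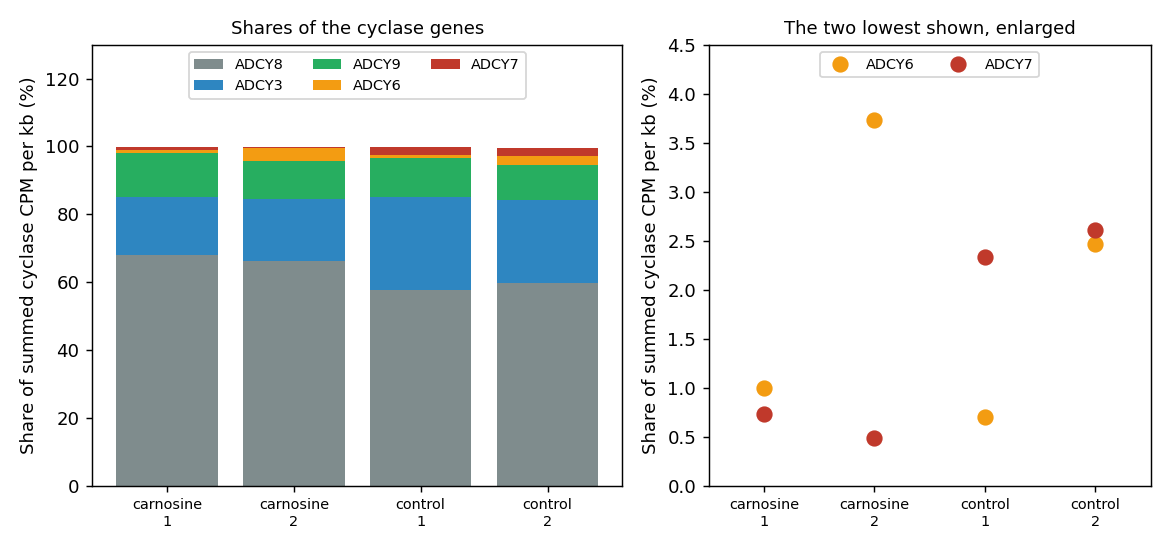
Share of each cyclase in the summed CPM per kb of the 10 cyclase genes in each library, in percent, as stacked bars (left) and, for ADCY6 and ADCY7 alone, as points on an enlarged axis (right). ADCY8 takes over 57% in each library, and the ADCY7 share is under 1% with carnosine and over 2% in controls.

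ADCY8 itself rose. It had 145.2 and 123.4 CPM with carnosine and 95.2 and 97.0 CPM in controls, 1.40-fold higher (0.48 ± 0.11 on the log2 scale, SE, adjusted p = 0.0485). It was the 1 call among 2 tested genes of the 6 other cyclases (50%, against 8.31% of all genes). Its call ended with total counts only (adjusted p = 0.0617), without carnosine replicate 1 (0.11), without control replicate 1 (0.199) and without control replicate 2 (0.189).

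Around the members, 139 other genes of the pathway were listed, of which 94 were tested. Of these, 12 rose and 5 fell, or 18.1%, against 8.31% of all genes tested, and the median log2 fold change was 0.08. The lists were chosen with earlier results of these data known, so their shares, here and below, are a description. The distance from the background varied with the setting. DESeq2 called 19 listed genes (21.3%, against 15.3% of all genes), limma-voom 14 (14.9%, against 8.09%), and the edgeR test with no filter on low counts 28 (25%, against 12%). Without control replicate 1 there were 9 (9.38%, against 3.69%), and without control replicate 2 there were 4 (4.21%, against 2.94%).

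Among 11 tested phosphodiesterases outside the PDE4 members named above, PDE7B, a cyclic AMP-specific enzyme, rose and the other 10 did not pass, a share of 9.09% where 8.31% of all genes were called. PDE7B had 6.77 and 8.32 CPM with carnosine and 3.25 and 3.17 CPM in controls, 2.35-fold higher (1.23 ± 0.19 on the log2 scale, SE, adjusted p = 0.0177). Both carnosine libraries had at least double the level of both controls. The call held in all alternatives that were run.

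Receptors of the urocortin family were not detected, while UCN and CRHBP were low but passed the filter on low counts. CRHR1 and CRHR2, the receptors of the family, and UCN3 had no count in any library, and CRH had at most 3 counts. CRHR1 shares 2277 of its 3285 exonic bases (69.3%) with LINC02210-CRHR1 on the same strand. How reads over such shared bases were counted is not stated, which limits the reading of its missing counts. UCN, the peptide urocortin, had 1.15 and 0.854 CPM with carnosine and 0.605 and 0.631 CPM in controls, or 0.70 ± 0.36 (SE) on the log2 scale (adjusted p = 0.263). CRHBP, a secreted protein that binds corticotropin-releasing hormone and urocortin, had 0.981 and 0.576 CPM with carnosine and 1.14 and 1.31 CPM in controls, or -0.64 ± 0.37 (adjusted p = 0.321). Of the 2 tested genes edgeR, DESeq2 and limma-voom each called 0, and 0 had an unadjusted p under 0.05.

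Of 8 tested subunits and inhibitors of protein kinase A besides PRKAR1A, 2 rose (25%, against 8.31% of all genes), both of them heat-stable inhibitors of the catalytic subunit. DESeq2 called 3 genes of this list, where it called 15.3% of all genes, and limma-voom called 2, where it called 8.09%. PKIB had 41.2 and 56.6 CPM with carnosine and 29.8 and 27.5 CPM in controls, 1.71-fold higher (0.77 ± 0.16 on the log2 scale, SE, adjusted p = 0.0352). PKIG had 38.3 and 36.2 CPM with carnosine and 27.9 and 23.6 CPM in controls, 1.45-fold higher (0.53 ± 0.12, adjusted p = 0.0435). The third inhibitor, PKIA, had 11.8 and 13.7 CPM with carnosine and 17.7 and 21.65 CPM in controls, or -0.63 ± 0.15, and did not pass (adjusted p = 0.0507). It lies outside the rule for named genes and was chosen after its values were seen. The catalytic subunit gene PRKACA, chosen in the same way, had 63.7 and 45.9 CPM with carnosine and 64.3 and 46.4 CPM in controls. The call of PKIB ended without control replicate 2 (adjusted p = 0.0778), and that of PKIG with total counts only (0.0535), without carnosine replicate 1 (0.0826), without control replicate 1 (0.0624) and without control replicate 2 (0.243).

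Of the receptors upstream of the cyclases 27.3% of those tested were called, and of the G proteins 11.1%, against 8.31% of all genes. Of 30 listed receptors that act through the stimulatory G protein, 11 were tested, and 9 had no count in any library. ADORA2B, the low-affinity adenosine receptor, rose 1.39-fold, with 99.96 and 107.0 CPM with carnosine and 70.4 and 78.9 CPM in controls (log2 fold change 0.47 ± 0.11 SE, adjusted p = 0.0425). MC1R, the melanocortin receptor, rose 2.13-fold, with 7.63 and 5.00 CPM with carnosine and 3.26 and 2.68 CPM in controls (1.09 ± 0.25, adjusted p = 0.0471), and it shares exonic bases with TCF25 and other genes. GPR3, a receptor with high activity in the absence of a ligand, was 2.41-fold lower, with 2.05 and 1.87 CPM with carnosine and 4.82 and 4.62 CPM in controls (-1.27 ± 0.20, adjusted p = 0.0202). GNAZ, an inhibitory G protein subunit, fell 1.70-fold, with 4.09 and 3.515 CPM with carnosine and 6.75 and 6.15 CPM in controls (-0.76 ± 0.18, adjusted p = 0.0496), the 1 call among 9 tested genes of its list. GNAS, the stimulatory subunit itself, had 758.3 and 788.8 CPM with carnosine and 720.9 and 762.4 CPM in controls, and it too was picked with its values in view.

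Each of these 4 calls was lost when at least 1 library was left out. The call of GPR3 ended without control replicate 1 (adjusted p = 0.0512), and that of ADORA2B without either control (0.252 and 0.11) or without carnosine replicate 2 (0.0713). MC1R was not called with total counts only (0.0626), in limma-voom (0.0551), without either control (0.0545 and 0.12) or without carnosine replicate 1 (0.12). GNAZ was not called without any 1 of the 4 libraries (0.0512 to 0.2) or in 5 of 8 other settings (0.0503 to 0.0759).

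Downstream, AKAP12, a scaffold that anchors protein kinase A and was first known as gravin, fell 1.90-fold, with 255.6 and 266.0 CPM with carnosine and 435.0 and 558.3 CPM in controls (log2 fold change -0.93 ± 0.14 SE, adjusted p = 0.0182). Both carnosine libraries were far below both controls. AKAP7, a smaller anchoring protein, fell 1.79-fold, with 2.43 and 2.40 CPM with carnosine and 4.21 and 4.43 CPM in controls (-0.84 ± 0.20, adjusted p = 0.0496). The other 13 tested anchoring proteins did not pass, so that 13.3% were called, against 8.31% of all genes. Of 7 tested effectors and exporters of cyclic AMP, POPDC3, a Popeye domain protein of the cyclic AMP-binding family, fell 1.76-fold, with 12.8 and 13.8 CPM with carnosine and 21.7 and 25.1 CPM in controls (-0.81 ± 0.13, adjusted p = 0.0197). POPDC3 was the 1 call of its list (14.3%, against 8.31% of all genes). The calls of AKAP12 (adjusted p = 0.0538) and POPDC3 (0.0653) ended without control replicate 2. AKAP7 was not called without any 1 of the 4 libraries (0.0801 to 0.199) or in 4 of 8 other settings (0.051 to 0.0669).

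Of 20 tested CREB target genes 5 rose (25%) and 0 fell, against 3.95% of all genes tested called higher. In the list 17 of 20 lay above 0, where 8191 of all 16340 genes tested did. Its median was 0.33 on the log2 scale, against 0.001 over all genes tested. The list was chosen with earlier results of these data known, so these values are a description. PPARGC1A, the coactivator of mitochondrial biogenesis, had 24.2 and 24.8 CPM with carnosine and 8.945 and 9.05 CPM in controls, 2.72-fold higher (1.44 ± 0.12 on the log2 scale, SE, adjusted p = 0.00631). PER1, a circadian clock gene, had 24.1 and 24.3 CPM with carnosine and 11.9 and 10.1 CPM in controls, 2.20-fold higher (1.14 ± 0.13, adjusted p = 0.0113). In both genes the replicates of a group lay close together and the groups far apart. NR4A3, an orphan nuclear receptor gene, had 4.71 and 7.37 CPM with carnosine and 2.67 and 2.20 CPM in controls, 2.47-fold higher (adjusted p = 0.0346). CITED2, a transcriptional coregulator, had 31.8 and 32.6 CPM with carnosine and 22.7 and 21.97 CPM in controls, 1.44-fold higher (adjusted p = 0.0302). BDNF, a neurotrophin, had 60.7 and 65.6 CPM with carnosine and 44.9 and 45.6 CPM in controls, 1.40-fold higher (adjusted p = 0.0318). The immediate early targets FOS, JUNB and EGR1 had log2 fold changes of 0.08 ± 0.23, 0.14 ± 0.12 and -0.25 ± 0.30 (adjusted p = 0.859, 0.491 and 0.642). These 3 were picked with their values in view. Many of these genes also respond to other signals.

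Without control replicate 2 CITED2 (adjusted p = 0.161), BDNF (0.145) and NR4A3 (0.0739) were not called, without control replicate 1 CITED2 (0.119) and BDNF (0.149) were not, and without carnosine replicate 2 BDNF (0.0597) and NR4A3 (0.0586) were not, while PPARGC1A and PER1 were called in every alternative run. Of 11 CREB factors and coactivators 1 was called (9.09%, against 8.31% of all genes). CREB5, a relative of CREB, rose 1.53-fold, with 31.6 and 30.5 CPM with carnosine and 22.6 and 18.0 CPM in controls (log2 fold change 0.61 ± 0.13 SE, adjusted p = 0.0418), and its call ended without carnosine replicate 1 (0.0648) and control replicate 2 (0.21). CREB1, picked with its values in view, had 0.19 ± 0.10 and did not pass (adjusted p = 0.26).

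**Figure D5:**
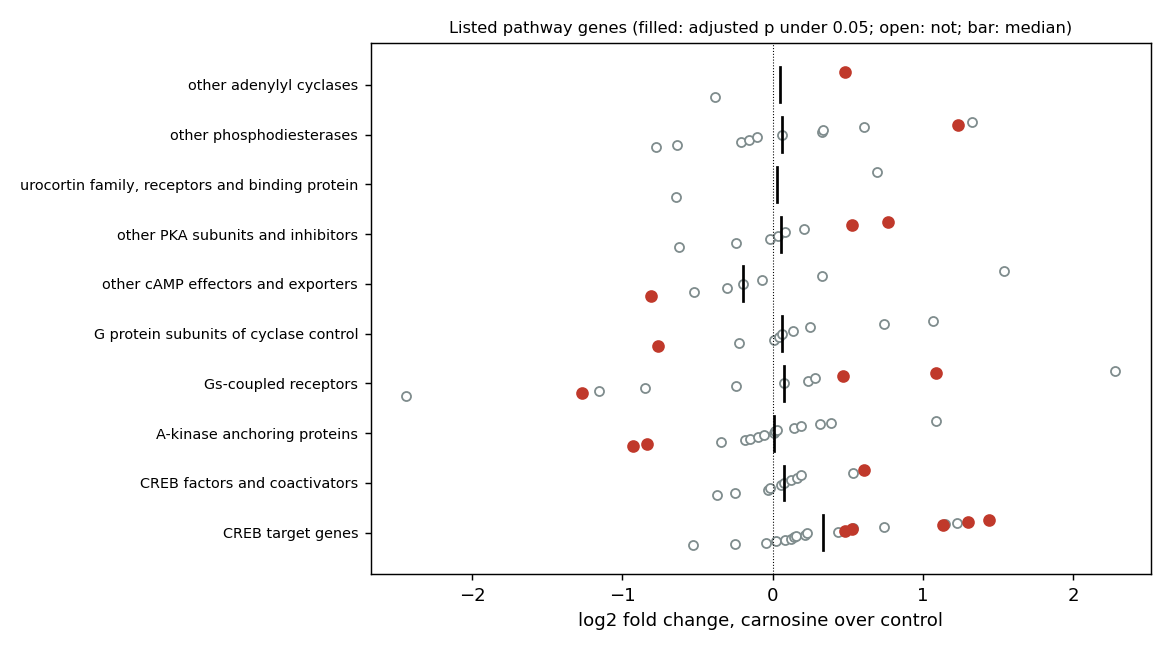
Log2 fold change of carnosine over control for each tested gene of 10 pathway lists, 1 point a gene, filled where the adjusted p was under 0.05 (edgeR's quasi-likelihood test), with a bar at each list's median. The 5 filled points of the CREB target genes all lie above 0, the 2 filled points of the anchoring proteins lie below 0, and the open points are the genes that did not pass.

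Likeness to ADCY7 and UCN2 was measured as the Euclidean distance between centred log2 CPM values over the 4 libraries, among 11415 genes with a mean count of at least 100. Since both genes were chosen for a fall, genes near them fell as well, and the distances are a description. The nearest to ADCY7 were PCK2, the mitochondrial phosphoenolpyruvate carboxykinase (distance 0.067), ERBB2, a receptor tyrosine kinase (0.175), and R3HCC1 (0.407). PCK2 had 7.50 and 4.49 CPM with carnosine and 17.7 and 18.8 CPM in controls. The nearest to UCN2 were EIF5, a translation initiation factor (0.474), ADCY7 (0.533) and PCK2 (0.549). ADCY7 and UCN2 shared the order within the carnosine group, replicate 1 above replicate 2, and differed in the order within the controls.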

How the data were processed

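RNA of U87 cells was measured in 2 carnosine and 2 control libraries, read as pairs of 101 bases, with the 4 libraries pooled on a single flow cell. HTSeq 0.6.1, HISAT2 2.1.0 and bcl2fastq 2.17.0, with the build hg38, are the tools that the submitters' processing notes list. The authors deposited raw counts per gene with no normalization. The sources used here do not give the annotation release, the strand setting or the treatment of reads with several matches, which bears on overlapping genes. Columns of other samples numbered 0.

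Genes were kept by filterByExpr in edgeR 4.0.16 (minimum count 10), which left 16340 genes. Libraries were scaled by TMM. Groups were compared across all genes by edgeR's quasi-likelihood F test, two-sided, with 2 residual degrees of freedom, Benjamini-Hochberg adjustment and a limit of 0.05 (R 4.3.3). CPM use the scaled library sizes. The SE is the absolute log2 fold change over the square root of F and is approximate. The fit was tested on simulated data, where large changes were mostly recovered and small ones mostly missed. False calls took a larger share of the simulated calls than the limit of 0.05 allows. It was a single simulation with far fewer changed genes than were called in the real data. The share of false calls in the real data, also among calls just under the limit, is therefore not known. Alternatives were 3 other scalings, 2 other filters, DESeq2 1.42.0, limma-voom (limma 3.58.1), a replicate block and leaving out each library. Exons and overlaps came from GENCODE 29 (GRCh38), matched for all 10 members with the same version. Replicates were not copies of 1 library: between replicates chi-square over its degrees of freedom came to 39.7 for carnosine and 25.7 for controls.

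The members and the 10 pathway lists were chosen with earlier results of these data known. All members were named, up to 6 passing genes of each list by p, or the 2 with the most counts where 0 passed, 3 genes most like ADCY7 and UCN2 each (offset 0.1 CPM), and genes overlapping or flanking them. Each share of promoter windows counts windows with at least 1 match. DESeq2 adjusted p values given as missing were left out.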

Additional observations from a re-analysis of the deposited data

How the results depend on the processing

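Over all genes 1358 were called. The count was 3145 with no filter on low counts (26103 genes tested), 2211 in DESeq2, and between 505 and 1595 without 1 library, with the lowest counts without control replicates 2 (505) and 1 (635). Of the 505 and 635, 445 and 536 were among the 1358. The called genes of the pathway lists numbered 17, 28 with no filter, and between 4 and 15 without 1 library. The cause of these shifts was not tested. Each fit without 1 library, whichever was left out, has 1 residual degree of freedom. It takes the spread within the group of 1 library from the other group. With total counts only, the share of higher calls among all calls was 618 of 1150, against 645 of 1358 with TMM.

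Members that turned sign without 1 library, with values not past the threshold, were ADCY6 (-0.28 to 1.97), PDE4A (-0.98 to 0.34), PDE4B (-0.26 to 0.23), PDE4D (-0.22 to 0.54) and CREM (-0.018 to 0.37), as log2 fold changes. None of the named genes turned sign in the other 8 settings. UCN2 lay between -2.50 and -1.76 without 1 library and between -2.09 and -2.04 in the other settings, and ADCY7 between -2.14 and -1.38 and between -1.72 and -1.66.

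Samples of both groups carry the numbers 1 and 2, which the labels do not tie to a shared culture or day. Deviations from the group means correlated across genes with r = 0.315 between same-numbered libraries, over 16340 genes. With a replicate block, 5767 genes (35.3%) and 37 listed pathway genes (39.4%) were called, the 1358 called without it among them. There, ADCY6 reached 0.83 on the log2 scale (adjusted p = 2.21e-05), ADCY9 0.42 (7.04e-06), PRKAR1A 0.34 (0.000722) and ADCY3 -0.26 (0.00649). With 2 pairs and 1 residual degree of freedom this is a hint from the data, not from the design. Counts under 100 limit PDE4A in every library, and ADCY7 (67 counts) and UCN2 (50 counts) in carnosine replicate 2. In carnosine replicate 1 ADCY7 had 136 counts and UCN2 had 100.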
